A study of Mus musculus with 39 samples.

Results

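The change of the genotype effect between day 1 and day 4 of muscle differentiation was measured in C2C12 cells, a mouse myoblast line that fuses into multinucleated myotubes when serum is lowered. For each gene it is the difference of differences, KO day 4 minus KO day 1, less WT day 4 minus WT day 1, on the log2 scale. A positive value means that the gene moved up in the knockout line relative to the wild-type line over these days, whichever of the lines moved. The 4 groups, with 4 libraries each, hold 16 of the 39 libraries of the series: Flnc-knockout cells (KO) on day 1 and day 4 after the switch to 2% horse serum, and wild-type cells (WT) on the same days. The knockout was made with CRISPR/Cas9 and a guide to the first exon of Flnc. The labels do not say whether the knockout line is 1 clone, nor whether numbered replicates are separate cultures, so p-values measure the spread between these samples, which may be technical, and a difference between the lines cannot be told apart from a difference between clones. Messenger RNA was read as stranded libraries, and the deposited counts per gene were tested in edgeR over all 10 groups of the series. A gene is called at an adjusted p under 0.05.

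Flnc encodes filamin C, the muscle member of the filamin family, which crosslinks actin and anchors it at Z-discs and cell-matrix junctions. Differentiating myoblasts leave the cell cycle, switch on the MyoD family of basic helix-loop-helix factors and their MEF2 partners, fuse, and build sarcomeres. Id proteins bind the shared partners of the MyoD family and hold these factors inactive, and they are normally shut down as myotubes form. Muscle cells also change their matrix: collagen VI surrounds muscle fibres, and in muscle tissue it is made largely by interstitial fibroblasts.

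Total counts per library ranged from 9877519 to 26096670. Flnc itself had 28.2 to 76.3 CPM (counts scaled to a common library size) in KO libraries on day 1 and 113 to 158 CPM on day 4, against 400 to 1110 CPM and 1140 to 2270 CPM in WT libraries. These counts cover the whole gene and so do not read the edited exon alone. A pair of KO libraries stood apart. KO day 1 replicate 3 had the lowest mean correlation with the rest of its group, 0.929, where the other 15 lay between 0.954 and 0.977. KO day 4 replicate 3 was the shallowest library and held reads of genes that were near 0 in the other KO libraries. For this, 16 genes were taken with a mean under 0.1 CPM in KO libraries of days 0, 2 and 6. Their mean in WT on day 1 was at least 10 CPM. In KO day 4 replicate 3 they summed to 19.6 CPM. That is 5.65% of the WT day 1 level and 20.8% of the WT day 4 level. KO replicates 1, 4 and 5 of day 4 had 0.128%, 0.0549% and 0.389% of the WT day 1 level. Against WT day 4 these had 0.471%, 0.202% and 1.43%. Results that rest on either library are given with and without it.

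Of 13780 genes tested, 493 (3.58%) changed differently in the lines: 305 moved higher in KO relative to WT (2.21%) and 188 moved lower (1.36%). Replicates of the same number deviated together across the lines within each day. With that number as a block within each day 1073 of 12884 genes tested were called, 589 higher and 484 lower. Block counts of lists given below stand beside that share, not beside 3.58%. With no block but without KO day 1 replicate 3, the counts over all genes were 252 and 175, with 227 and 142 of the original calls kept. Without both replicate 3 libraries of KO they were 200 and 189, with 188 and 148 kept. The median change was 2.07 among the 305 genes and -1.76 among the 188, against 0.00 over all genes tested.

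Among the called genes, a call in WT with none in KO was the most frequent pattern. The changes in each line make up the contrast that chose these genes, so the sorting is a description. The same patterns were not counted over all genes tested, where WT also had more calls than KO. From day 1 to day 4, 1766 genes rose in WT (12.8%) and 2501 fell (18.1%), whereas 888 rose in KO (6.44%) and 1394 fell (10.1%). Of the 305 genes that moved higher, 204 (66.9%) fell in WT with no call in KO. A further 35 fell in WT and rose in KO, 48 rose in KO with no call in WT, 12 fell in both, 5 rose in both, and 1 was called in neither. Of the 188 that moved lower, 109 (58.0%) rose in WT with no call in KO, 21 rose in WT and fell in KO, 44 fell in KO with no call in WT, 9 rose in both, and 5 were called in neither. A missing call in KO does not show that a gene held still there. In bulk RNA, fewer cells of a type and less RNA per cell cannot be told apart.

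**Figure D1:**
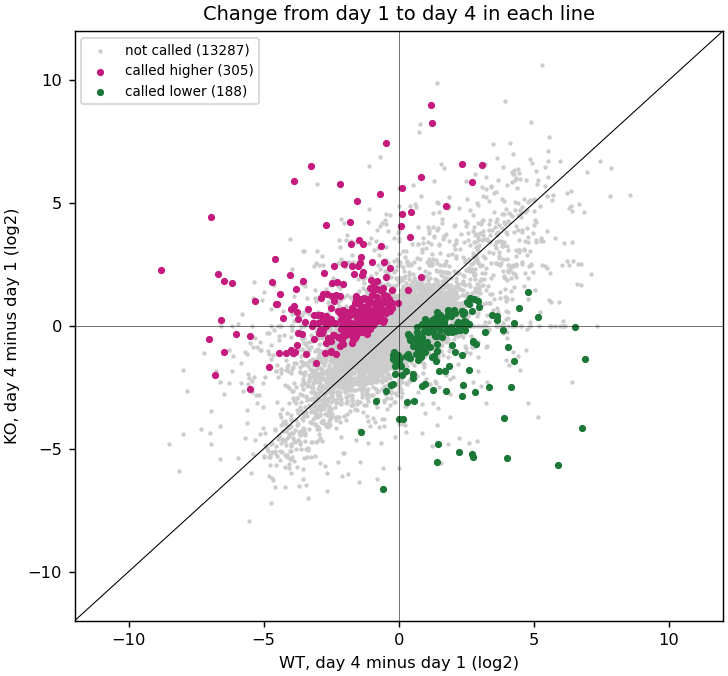
Log2 change from day 1 to day 4 in KO (vertical axis) against WT (horizontal axis) for each of 13780 genes; the diagonal marks equal change. The 305 genes called higher lie above the diagonal, mostly left of 0, and the 188 called lower lie below it, mostly right of 0.

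The lines were often level, or ordered the other way, on day 1. For 153 of the 305 genes the sign of KO minus WT on day 4 was the opposite of that on day 1, for 127 a difference of the same sign widened, and for 25 it narrowed. Of the 188 genes, 109 crossed, 70 widened and 9 narrowed. Over all 13780 genes tested, 4106 crossed, 5559 widened and 4115 narrowed. The median of KO minus WT for the 305 genes was -0.36 on day 0, -0.16 on day 1, 0.51 on day 2, 1.66 on day 4 and 1.80 on day 6. The differences on days 1 and 4 chose these genes; libraries of days 0, 2 and 6 entered the choice through the shared spread and filter. For the 188 genes the medians were 0.32, 0.27, -0.47, -1.52 and -1.53. Over all genes tested they stayed between -0.04 and 0.02.

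**Figure D2:**
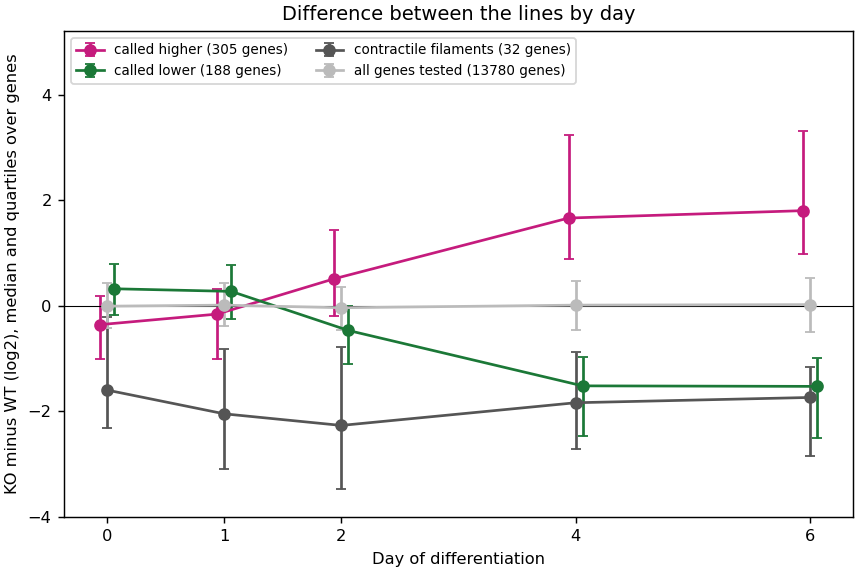
Median and quartiles over genes of KO minus WT (log2) on days 0, 1, 2, 4 and 6 for the genes called higher, the genes called lower, 32 genes of contractile filaments and all genes tested. The medians of both called sets part between days 1 and 4 and are about as far apart on day 6. The median of the contractile filament genes lies below 0 on every day, at -2.05 on day 1 and -1.84 on day 4.

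Id genes were among those that parted: their transcripts fell in WT and had no call downwards in KO. Id3, an inhibitor of basic helix-loop-helix factors (chr4:136143497-136145755, + strand, GRCm38), had 256, 536, 543 and 441 CPM in KO on day 4 and 245, 680, 232 and 303 CPM in KO on day 1. In WT it had 3.24, 3.91, 2.79 and 0.461 CPM on day 4 and 43.1, 45.1, 33.4 and 13.4 CPM on day 1. The lines did not overlap on either day, and the WT days did not overlap with each other. The difference of differences was 4.00 ± 0.88 (SE; adjusted p = 0.000848). Id2 had 85.6 to 104 CPM in KO and 7.39 to 15.2 CPM in WT on day 4, against 34.2 to 68.5 CPM in KO and 13.4 to 29.3 CPM in WT on day 1. It rose in KO (1.02, adjusted p = 0.00693) and fell in WT (-1.05, adjusted p = 0.00322), which gave 2.07 ± 0.40 (adjusted p = 0.00129). Id1 followed with 2.10 ± 0.44 (adjusted p = 0.00321). Of the 30 tested genes of the TGF-beta, BMP and Id list, 4 moved higher and 2 lower (20.0% called, against 3.58% of all genes); the fourth was Inhbb, a subunit of activin B, with a mean of 167 CPM in KO and 8.49 CPM in WT on day 4 (2.82 ± 1.04, adjusted p = 0.0269, and up to 0.0782 without KO day 1 replicate 3 or 5 or WT day 1 replicate 4).

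Follistatin moved the other way within that list. Fst, a secreted antagonist of myostatin and activins (chr13:114452290-114458951, - strand), had 52.7, 36.0, 47.0 and 34.4 CPM in KO on day 4 and 10.6, 14.9, 24.3 and 15.5 CPM on day 1. In WT it had 319, 164, 210 and 163 CPM on day 4 and 7.19, 5.79, 5.22 and 12.4 CPM on day 1. It rose in both lines, by 1.38 in KO (adjusted p = 0.0111) and by 4.80 in WT (adjusted p = 2.6e-09), so that it was lower in every KO library than in any WT library on day 4. The difference of differences was -3.42 ± 0.46 (adjusted p = 0.000357). Tgfb3, a TGF-beta ligand, was the other member lower (-1.59 ± 0.37, adjusted p = 0.00892). The median over the 30 members was 0.38, against 0.00 over all genes.

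**Figure D3:**
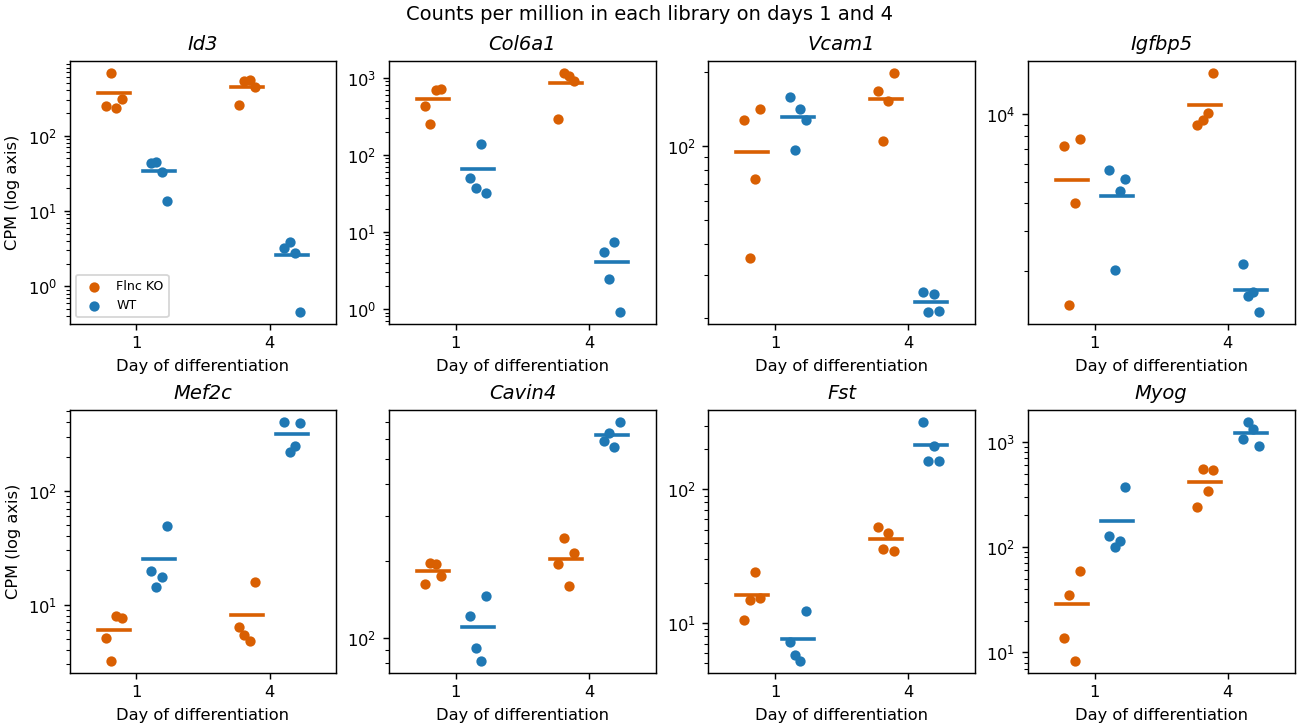
CPM (log axis) of 8 genes in each library on days 1 and 4, with KO left of WT and a bar at each mean of 4 libraries. On day 4 all KO libraries lie above all WT libraries for Id3, Col6a1, Vcam1 and Igfbp5, and below them for Mef2c, Cavin4, Fst and Myog; Myog is lower in KO on day 1 as well.

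All 3 collagen VI chains tested moved higher, each with a fall in WT. Col6a1 (chr10:76708792-76726168, - strand) had 289, 1150, 1060 and 914 CPM in KO on day 4 and 426, 254, 701 and 712 CPM on day 1. In WT it had 5.41, 2.42, 7.48 and 0.922 CPM on day 4 and 49.8, 36.7, 140 and 32.1 CPM on day 1. KO was above WT in every library of both days, with replicate 1 the lowest of the KO day 4 libraries. The difference of differences was 4.68 ± 0.99 for Col6a1 (adjusted p = 0.00257) and 4.62 ± 0.95 for its neighbour Col6a2 (chr10:76595762-76623630, - strand; adjusted p = 0.00296). Col6a3, on chromosome 1, differed in that it fell in both lines, by 1.66 in KO (adjusted p = 0.00102) and by 4.81 in WT (adjusted p = 9.48e-10). It had 102 to 155 CPM in KO and 7.82 to 13.9 CPM in WT on day 4, against 127 to 824 CPM and 197 to 542 CPM on day 1.

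Most other matrix genes were not called. Of the 30 tested genes of fibrillar and interstitial matrix, 5 moved higher and 0 lower at this threshold (16.7% called, against 3.58% of all genes), and the list median was -0.16. With the block within each day 5 moved higher and 2 lower. Besides collagen VI, those called higher without the block were Bgn and Fbln1, the small proteoglycan biglycan and the glycoprotein fibulin 1. Fbln1 was at 2.95 ± 1.10 (adjusted p = 0.0246, and up to 0.0632 without KO day 4 replicate 3 or 5, WT day 1 replicate 4 or WT day 4 replicate 1). Bgn was far lower in KO on day 1, at 2.18, 2.54, 6.44 and 6.50 CPM, against 704, 582, 1060 and 292 CPM in WT. On day 4 it had 2.07, 63.7, 4.67 and 10.1 CPM in KO and 82.1, 126, 154 and 26.2 CPM in WT, so the call rests in part on KO day 4 replicate 3. It was 4.92 ± 1.32 with all libraries (adjusted p = 0.00348), 3.12 without that library (adjusted p = 0.0332) and 2.89 without both replicate 3 libraries (adjusted p = 0.0814). In the basement membrane list 1 of 17 (5.88%) moved higher, Nid1, which encodes nidogen 1 (2.12 ± 0.68, adjusted p = 0.0149). Among 28 matricellular proteins and proteases 3 moved higher and 2 lower (17.9% called, against 3.58% of all genes). Serpine2, a serine protease inhibitor, had 204 to 550 CPM in KO and 6.23 to 24.8 CPM in WT on day 4 (3.39 ± 0.61, adjusted p = 0.000522). Adamts5, a metalloprotease that cuts versican and aggrecan, had 71.1, 23.1, 27.9 and 26.0 CPM in KO and 293, 104, 116 and 209 CPM in WT on day 4, after 55.3 to 143 CPM and 38.1 to 70.7 CPM on day 1. It fell in KO and rose in WT (-3.48 ± 0.64, adjusted p = 0.000522). With the block within each day 6 basement membrane genes and 9 of the matricellular list were called.

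The 3 genes with the smallest p among those that moved higher were Fam19a5, Trib1 and Tcim. Fam19a5, also called Tafa5, encodes a secreted chemokine-like protein. It had 22.1, 82.3, 67.8 and 76.6 CPM in KO on day 4 and 9.27 to 13.3 CPM on day 1, and in WT it had 2.85 to 4.78 CPM on day 4 and 9.71 to 13.6 CPM on day 1. The lines overlapped on day 1 and did not on day 4 (3.94 ± 0.51, adjusted p = 1.78e-06). Trib1, a Tribbles pseudokinase, rose by 1.23 in KO and fell by 1.57 in WT, for 2.80 ± 0.25 (adjusted p = 6.77e-06). Tcim, a small regulatory protein, had 41.7, 97.6, 105 and 116 CPM in KO and 2.40, 3.35, 4.01 and 4.27 CPM in WT on day 4, against 3.50 to 11.5 CPM and 5.2 to 14.8 CPM on day 1 (4.94 ± 0.64, adjusted p = 2.69e-05).

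Receptors and cytokine signalling genes showed several orders of the lines. Ackr3, a scavenging receptor of the chemokine CXCL12, had 53.4, 85.6, 80.4 and 108 CPM in KO and 80.7, 64.1, 48.8 and 75.9 CPM in WT on day 4. On day 1 it had 29.8, 17.5, 15.3 and 30.2 CPM in KO against 119, 107, 100 and 143 CPM in WT, so a gap present on day 1 had closed by day 4 (2.62 ± 0.38, adjusted p = 0.000104). Socs3, a feedback inhibitor of cytokine signalling, rose by 1.06 in KO and fell by 1.18 in WT (2.23 ± 0.40, adjusted p = 0.000156). Csf2rb, the common receptor subunit for IL-3, IL-5 and GM-CSF, had 40.2, 18.1, 25.1 and 38.4 CPM in KO and 2.40, 0.745, 2.48 and 0.461 CPM in WT on day 4 (5.29 ± 0.98, adjusted p = 0.00167). Enpp2, which encodes autotaxin, the enzyme that makes lysophosphatidic acid, had 71.5, 10.5, 27.7 and 27.6 CPM in KO and 1.32, 0.559, 5.69 and 0.461 CPM in WT on day 4 (5.13 ± 1.24, adjusted p = 0.0108). Cmtm3, a membrane protein of the CMTM family, had 42.8 to 55.0 CPM in KO and 11.8 to 21.4 CPM in WT on day 4 (2.09 ± 0.29, adjusted p = 0.000104).

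Markers of undifferentiated muscle cells and of other lineages were followed as lists. Vcam1, an adhesion molecule of satellite cells (chr3:116109949-116129688, - strand), had 167, 105, 153 and 198 CPM in KO and 25.6, 21.2, 25.0 and 21.3 CPM in WT on day 4. The day 1 values were 127, 34.9, 73.1 and 142 CPM in KO and 158, 96.1, 141 and 128 CPM in WT, where the lines overlapped. The difference of differences was 3.21 ± 0.53 (adjusted p = 6.01e-05). Of the 10 tested satellite and reserve cell markers 2 moved higher (20.0% called, against 3.58% of all genes). Besides Vcam1 this was Sdc4, at 1.01 ± 0.15 (adjusted p = 0.0336). The call of Sdc4 was lost without any 1 of 9 libraries (adjusted p up to 0.35 over all alternatives). The summed level of that list was 479 to 574 CPM in KO and 260 to 293 CPM in WT on day 4, against 440 to 586 CPM and 481 to 598 CPM on day 1, with 2 of its 12 members at 0 in all 16 libraries. Sox9, the regulator of cartilage fate, moved higher (1.99 ± 0.32, adjusted p = 6.01e-05) as 1 of 6 tested bone and cartilage markers (16.7%). That list summed to 134 to 171 CPM in KO and 61.5 to 75.9 CPM in WT on day 4, against 49.7 to 120 CPM and 95.3 to 183 CPM on day 1, with 2 of 12 members at 0. Sox9 alone made up most of the day 4 sums, at 107 to 158 CPM in KO and 53.0 to 58.7 CPM in WT. Cebpa, a regulator of fat cell fate, had 58.3 to 126 CPM in KO and 0.692 to 2.79 CPM in WT on day 4 (3.43 ± 0.62, adjusted p = 0.000522). It was the 1 called of 4 tested adipocyte markers (25.0%), with a list median of 0.09. Of the 10 members of the list 4 were at 0. The list summed to 76.2 to 148 CPM in KO and 38.6 to 41.8 CPM in WT on day 4. Cebpa alone made up most of the KO sum and little of the WT sum. On day 1 that list summed to 84.8 to 122 CPM in KO and 54.1 to 87.8 CPM in WT, which overlapped, and Cebpa was already higher in KO, at 46.3 to 77.2 CPM against 6.93 to 21.7 CPM in WT. Among 7 fibroblast, 9 smooth muscle, 3 endothelial and 4 macrophage markers 0 were called by edgeR or DESeq2, with 3, 0, 1 and 1 at an unadjusted p under 0.05; the block within each day called 1 of smooth muscle and 1 of macrophages. Their sums on day 4 were 169 to 499 CPM in KO and 234 to 569 CPM in WT for fibroblasts, 4890 to 13800 CPM and 5550 to 10100 CPM for smooth muscle, 1.46 to 4.00 CPM and 3.24 to 10.1 CPM for endothelium, and 14.1 to 19.3 CPM and 4.75 to 9.12 CPM for macrophages. On day 1 they were 485 to 762 CPM in KO and 272 to 530 CPM in WT for fibroblasts, 6530 to 11100 CPM and 4460 to 4810 CPM for smooth muscle, 0.169 to 1.54 CPM and 0.605 to 3.19 CPM for endothelium, and 14.4 to 26.1 CPM and 14.1 to 18.3 CPM for macrophages. Of 7 neuron and Schwann cell markers 1 was called (14.3%), Gap43. That call was lost without KO day 4 replicate 3, which had 3.09 CPM where the others of its group had 0. The list median was 1.76 with all libraries, and 3 of 10 members were at 0. The list summed to 8.22 to 45.7 CPM in KO and 24.2 to 70.0 CPM in WT on day 4, against 11.6 to 28.0 CPM and 155 to 257 CPM on day 1. Whether other cell types have a part in the results was not tested.

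Igfbp5, a secreted binding protein of insulin-like growth factors, had 8980, 9460, 10100 and 15300 CPM in KO and 2130, 1540, 1600 and 1310 CPM in WT on day 4. On day 1 the lines overlapped, at 7190, 1400, 4020 and 7780 CPM in KO and 5610, 2010, 4520 and 5150 CPM in WT. It rose in KO and fell in WT (2.50 ± 0.70, adjusted p = 0.00359). In the list of the insulin-like growth factor axis and imprinted genes 2 of 16 moved higher and 2 lower (25.0% called, against 3.58% of all genes). The second one higher was Igfbp4 (3.77 ± 0.83, adjusted p = 0.00797), for which a gap closed. Its mean was 0.994 CPM in KO and 10.1 CPM in WT on day 1, and 4.16 CPM and 3.13 CPM on day 4. Lower were Grb10, an adaptor that dampens insulin signalling (-3.44 ± 0.49, adjusted p = 0.00322), and H19, a maternally expressed long noncoding RNA (-1.70 ± 0.50, adjusted p = 0.0373). Grb10 was low throughout, with a mean of 1.85 CPM in KO and 0.225 CPM in WT on day 1. On day 4 its means were 2.15 CPM and 2.87 CPM. The call of H19 was lost without any 1 of 9 libraries, with an adjusted p up to 0.135 over all alternatives.

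The smallest p among genes that moved lower was that of Arhgef6. Arhgef6, an exchange factor for Rac and Cdc42 (chrX:57231485-57338729, - strand), had 7.11, 4.74, 5.05 and 4.86 CPM in KO and 68.7, 58.5, 74.6 and 60.2 CPM in WT on day 4. On day 1 it had 3.69, 1.69, 5.41 and 5.99 CPM in KO and 1.45, 1.71, 1.31 and 2.78 CPM in WT. The order of the lines thus turned round between the days, with overlap on day 1 alone (-4.81 ± 0.49, adjusted p = 6.77e-06). Its mean in WT was 0.684 CPM on day 0, 7.95 CPM on day 2 and 86.6 CPM on day 6, against 2.96, 4.81 and 6.07 CPM in KO.

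Cavin4, a muscle-restricted component of caveolae (chr4:48663514-48673502, + strand), had 194, 247, 159 and 214 CPM in KO and 591, 634, 560 and 699 CPM in WT on day 4. On day 1 it had 162, 196, 195 and 175 CPM in KO and 122, 91.4, 81.3 and 146 CPM in WT. KO was higher in every library on day 1 and lower in every library on day 4 (-2.34 ± 0.25, adjusted p = 1.42e-05). Mttp, the microsomal triglyceride transfer protein, had 8.22, 7.84, 9.58 and 13.2 CPM in KO and 62.0, 54.8, 73.7 and 61.4 CPM in WT on day 4 (-2.21 ± 0.22, adjusted p = 0.000104). Nuak1, a kinase of the AMPK family, moved lower by less (-2.05 ± 0.35, adjusted p = 0.000352), and rose in WT (1.82) with no call in KO (-0.23). Cd36, a fatty acid transporter, had 2.19 to 11.5 CPM in KO and 32.2 to 84.7 CPM in WT on day 4 (-4.16 ± 1.10, adjusted p = 0.013); without KO day 1 replicate 5 its adjusted p was 0.0606.

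Other genes that moved lower fell in KO. Rtkn2, a member of the rhotekin family, had 1.33, 0.825, 1.05 and 1.40 CPM in KO and 10.1, 11.3, 11.8 and 10.7 CPM in WT on day 4, against 8.54 to 26.1 CPM and 8.25 to 11.9 CPM on day 1. It fell by 3.80 in KO (adjusted p = 6.16e-08) and was at 0.02 in WT (-3.82 ± 0.45, adjusted p = 2.69e-05). Sgcd, the delta subunit of the sarcoglycan complex, had 12.1, 3.92, 9.77 and 6.58 CPM in KO and 28.8, 11.8, 14.3 and 19.2 CPM in WT on day 4, where the lines overlapped. On day 1 the KO libraries were all higher, at 17.6 to 27.7 CPM against 5.10 to 8.45 CPM in WT. Sgcd fell by 1.43 in KO (adjusted p = 0.000595) and rose by 1.37 in WT (adjusted p = 0.000468; difference -2.80 ± 0.50, adjusted p = 0.000104). Fhl2, a LIM protein of the sarcomere, had 33.3 to 40.6 CPM in KO and 54.4 to 94.1 CPM in WT on day 4, against 94.1 to 123 CPM and 55.0 to 86.3 CPM on day 1 (-1.50 ± 0.27, adjusted p = 0.00186). Vgll2, a cofactor of TEAD factors in muscle, fell by 3.08 in KO (adjusted p = 0.000405) and had 0.31 in WT (-3.39 ± 0.91, adjusted p = 0.0113, and 0.0524 with the replicate block within each day).

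Among 36 tested myogenic transcription factors and cofactors 4 moved higher and 3 lower (19.4%, against 3.58% of all genes), with a list median of 0.19. Mef2c, a MADS-box activator of muscle genes (chr13:83504034-83667080, + strand), had 6.37, 5.36, 4.77 and 15.7 CPM in KO and 403, 220, 249 and 395 CPM in WT on day 4. On day 1 it had 5.05, 3.21, 8.01 and 7.62 CPM in KO and 19.7, 14.2, 17.6 and 48.9 CPM in WT. It rose by 3.66 in WT (adjusted p = 1.28e-06) and was at 0.43 in KO (-3.23 ± 0.66, adjusted p = 0.00369). Besides Sox9, those higher included Pitx3, a homeobox factor (3.71 ± 0.74, adjusted p = 0.0018), and Sox8 (2.09 ± 0.64, adjusted p = 0.0464), whose call was lost without any 1 of 13 libraries (adjusted p up to 0.129).

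Myog and Myod1, of the MyoD family, did not pass the test of the difference between these days. Myog, which drives terminal differentiation, had 243, 550, 341 and 536 CPM in KO and 1070, 1540, 1310 and 915 CPM in WT on day 4. The day 1 values were 13.7, 34.9, 8.33 and 59.0 CPM in KO and 127, 101, 115 and 373 CPM in WT. KO was below WT in every library on both days, and Myog rose in KO (3.85, adjusted p = 2.02e-05) and in WT (2.76, adjusted p = 0.000374). The difference of differences was 1.09 ± 0.84 (adjusted p = 0.556). Myod1, the factor that commits cells to muscle, had 175 to 316 CPM in KO and 111 to 150 CPM in WT over both days (0.16 ± 0.24, adjusted p = 0.874). Of the 24 genes of filamins, myogenesis, fusion and the cell cycle followed by name, 4 were called, where 3.58% of all genes were. These were Id1, Id2, Id3 and Mef2c. Flnc was at 0.17 ± 0.52 (adjusted p = 0.926), and Flna, the widely expressed filamin A, was at 1.45 ± 0.49 (adjusted p = 0.113). With the replicate number as a block within each day Flna was called at 1.46 (adjusted p = 0.00375).

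Of 32 contractile filament genes 29 rose in KO and 29 in WT, and 1 moved lower (3.12% called, close to the 3.58% of all genes). With the replicate block within each day 5 of them moved higher and 3 lower, where 1073 of 12884 genes tested were called. KO minus WT had a list median of -1.84 on day 4 and -2.05 on day 1. Acta1, skeletal alpha-actin, had 1080, 2620, 1530 and 2880 CPM in KO and 4120, 6220, 6210 and 4580 CPM in WT on day 4, against 18.3 to 80.2 CPM and 94.0 to 961 CPM on day 1 (1.35 ± 0.94, adjusted p = 0.425). Myh3, embryonic myosin heavy chain, had 580 to 1030 CPM in KO and 4350 to 6190 CPM in WT on day 4 (1.71 ± 1.24, adjusted p = 0.524). Actc1, cardiac alpha-actin, had 22.9 to 64.5 CPM in KO and 1240 to 2810 CPM in WT on day 4 (0.32 ± 0.95, adjusted p = 0.926). The member called was Tpm2, a beta-tropomyosin, which was higher in KO on average on day 1 (0.54) and lower on day 4 (-1.0; difference -1.54 ± 0.38, adjusted p = 0.00892). The 38 tested genes of the Z-disc, the M-band and filamin C partners had 1 called, Fhl2, and 22 rose in KO and 27 in WT; with the block 2 moved higher and 7 lower.

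Of 30 fusion genes 2 moved higher and 3 lower (16.7% called, against 3.58% of all genes). Lower were Cdh2, N-cadherin (-2.02 ± 0.63, adjusted p = 0.00612), Dysf, the membrane repair protein dysferlin (-1.85 ± 0.50, adjusted p = 0.0187; leaving out KO day 1 replicate 4, 0.0549), and Jam3, a junctional adhesion molecule (-1.29 ± 0.30, adjusted p = 0.0259, and up to 0.0856 without KO day 4 replicate 3, WT day 1 replicate 3 or 4, or WT day 4 replicate 1). Higher were Dock5, a Rac exchange factor (1.68 ± 0.54, adjusted p = 0.00946), and Cdh11 (adjusted p = 0.0246), whose call ends without KO day 1 replicate 3 (0.0506), KO day 1 replicate 4 (0.0524), KO day 4 replicate 3 (0.714) or WT day 1 replicate 4 (0.0527), and with the block (0.125). Mymk, the fusion protein myomaker, had 315 to 550 CPM in KO and 1240 to 2230 CPM in WT on day 4 and was not called (1.10 ± 0.71, adjusted p = 0.461). Jph1, which holds triad membranes together, rose in WT (2.35) with no call in KO (0.63; difference -1.72 ± 0.36, adjusted p = 0.00354). It was 1 of 29 triad and calcium genes (6.9% called in all) that moved lower, while 1, Kcnj2, an inward rectifier channel, moved higher (1.99 ± 0.65, adjusted p = 0.0384) and lost its call without any 1 of 10 libraries (adjusted p up to 0.123 over all alternatives). Of 31 genes of the dystrophin complex and costamere 2 moved lower (6.45%), Sgcd and Itga6, an integrin alpha chain with 27.6 to 74.5 CPM in KO and 302 to 555 CPM in WT on day 4 (-2.16 ± 0.51, adjusted p = 0.00984). With the block within each day 6 genes of this list moved lower and 0 higher, and 5 triad and calcium genes were called.

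All 36 tested mitosis genes fell in KO and 35 fell in WT, and of 36 DNA replication genes 32 fell in KO and 30 in WT. In the difference of differences edgeR called 0 of either list; 1 mitosis and 3 replication genes had an unadjusted p under 0.05, DESeq2 called 0 of either, and the block within each day called 0 mitosis and 3 replication genes. Of 23 CDK inhibitors, cyclins and pocket proteins 1 moved higher, Gas1, and 2 lower (13.0% called, against 3.58% of all genes). Of the 23, 10 fell in each line, 3 rose in KO and 5 rose in WT. The call of Gas1 was lost without any 1 of 10 libraries. Cdkn1a, the inhibitor p21, had 1240 to 2400 CPM in KO and 2500 to 5150 CPM in WT on day 4 (0.12 ± 0.46, adjusted p = 0.946). Cdkn2c, the inhibitor p18, fell by 1.95 in KO (adjusted p = 1.35e-05; difference -1.80 ± 0.43, adjusted p = 0.0082). Cdk2, a kinase of S phase entry, rose by 1.31 in WT (adjusted p = 5.57e-06) and had 42.0 to 52.7 CPM in KO and 114 to 133 CPM in WT on day 4 (-1.20 ± 0.26, adjusted p = 0.0092).

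In muscle energy metabolism 9.68% of genes were called, against 3.58% of all genes: 1 of 31 moved higher, Ampd3, an AMP deaminase (1.72 ± 0.51, adjusted p = 0.0076), and 2 lower, Cd36 and Pfkm, muscle phosphofructokinase (-1.49 ± 0.26, adjusted p = 0.00828); with the block within each day 3 moved higher and 4 lower. Of 25 genes of sterol synthesis and its control 1 moved higher and 2 lower (12.0% called), with a list median of -0.90; 15 fell in KO and 3 in WT. Abca1, the cholesterol exporter, had 4.44, 8.46, 30.7 and 42.2 CPM in KO and 5.53, 2.23, 7.06 and 10.9 CPM in WT on day 4. The day 1 values were 0.0971, 0, 0 and 1.45 CPM in KO and 6.69, 1.51, 4.99 and 10.7 CPM in WT; it rose by 5.61 in KO (adjusted p = 4.35e-05; difference 5.50 ± 1.41, adjusted p = 0.0045). Ebp and Dhcr7, enzymes of late cholesterol synthesis, moved lower, at -1.71 ± 0.48 (adjusted p = 0.0148; leaving out KO day 1 replicate 3, 0.0602) and -1.93 ± 0.32 (adjusted p = 0.0246; 0.0503 leaving out KO day 1 replicate 4, 0.061 leaving out KO day 4 replicate 4 and 0.058 leaving out WT day 1 replicate 1). With the block within each day 1 sterol gene moved higher and 7 lower.

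Several further lists had 0 called in edgeR. Over all genes, 2103 of 13780 had an unadjusted p under 0.05, DESeq2 called 736 of 13508, and the block called 1073 of 12884. The nuclear respiratory chain (32 tested) and the mitochondrial genome (10) also had 0 at an unadjusted p under 0.05 and 0 in DESeq2 and with the block. Hypoxia and glycolysis (28) had 6 at an unadjusted p under 0.05, 1 in DESeq2 and 5 with the block within each day. The same counts were 4, 0 and 3 for Notch (16), 12, 3 and 5 for Wnt modulators and targets (23), and 3, 1 and 5 for the unfolded protein and integrated stress response (29). Of 37 genes of the actin cytoskeleton and of SRF and YAP targets 2 were called (5.41%, against 3.58% of all genes). These were Actg1, gamma-actin, higher and Cnn3, a calponin, lower (-1.08 ± 0.20, adjusted p = 0.00792). DESeq2 called 7 of the 37 and the block 12. The call of Actg1 (1.34 ± 0.37, adjusted p = 0.0434) was lost without any 1 of 12 libraries. Single members lower were Ncam1, a neural cell adhesion molecule, of 15 endplate genes (6.67%), Ifit2 of 25 interferon genes (4.0%) and Asb5 of 23 ubiquitin and autophagy genes (4.35%). These calls were lost without any 1 of 5, 10 and 9 libraries, and the block called 2 genes in each of these lists. Of 12 immediate early genes, whose level can follow handling of the cells, edgeR called 0, with 5 at an unadjusted p under 0.05 and 2 called by DESeq2; their sums were 553 to 777 CPM in KO and 427 to 588 CPM in WT on day 4.

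**Figure D4:**
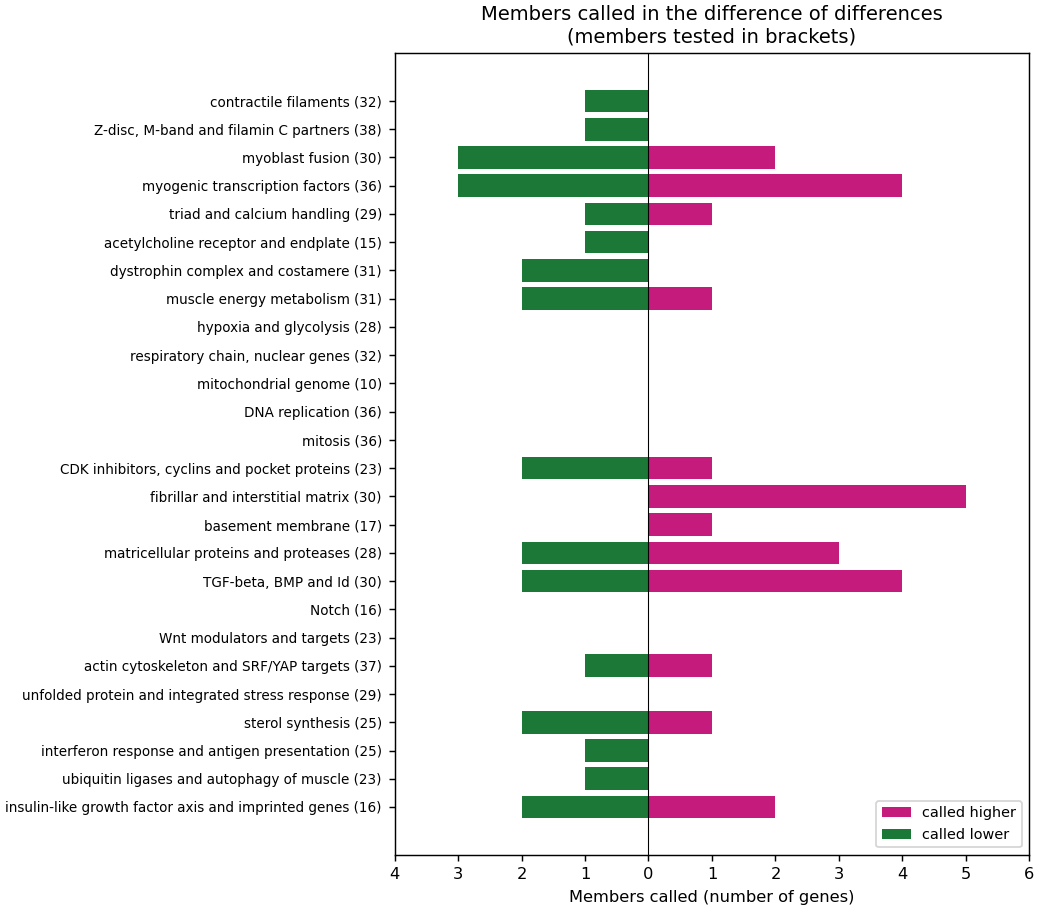
Number of members called higher (right of 0) and called lower (left of 0) in the difference of differences for 26 gene lists, with the number tested in brackets. Fibrillar matrix has 5 called higher and 0 lower, and DNA replication and mitosis have 0 in both directions.

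Some called genes were near 0 in 1 line. Kcnj15, an inward rectifier channel, had 202, 165, 189 and 173 CPM in KO on day 4 and 119, 20.2, 80.4 and 77.4 CPM on day 1. In WT it had 0.12, 0.186, 0.105 and 0 CPM on day 4 and 0.365 to 0.995 CPM on day 1, and it was higher in KO on both days (3.93 ± 0.69, adjusted p = 0.00652). Mboat2, a lysophospholipid acyltransferase, had 0 CPM in all 4 KO libraries and 10.0 to 18.2 CPM in WT on day 4, against 0 to 0.513 CPM and 1.01 to 3.48 CPM on day 1. Cgref1, a secreted calcium-binding protein, had 0, 0.619, 0.0953 and 0.756 CPM in KO and 15.6 to 23.9 CPM in WT on day 4 (-4.39 ± 0.92, adjusted p = 0.000145).

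Other calls of genes near 0 in KO rest on KO day 4 replicate 3. Gap43, a growth cone protein, had 0, 3.09, 0 and 0 CPM in KO on day 4 and 0 CPM in every KO library on day 1, against 2.04 to 6.92 CPM and 21.3 to 76.4 CPM in WT. Its adjusted p was 0.00559 with that library and 1.00 without it. Add2, a membrane skeleton adducin, had 0, 2.48, 0 and 0.216 CPM in KO on day 4, and its adjusted p was 0.0142 with the library and 0.526 without it. For Cdh11, a cadherin with 0.148, 3.71, 0 and 0 CPM in KO on day 4, the adjusted p was 0.0246 with it and 0.714 without it. Nefl, the light neurofilament chain, had 0, 12.0, 0 and 0 CPM in KO on day 4; its difference of differences was 6.46 (adjusted p = 0.0081) with the library and -2.19 (adjusted p = 0.788) without it. Of the 25 genes called higher in which the gap between the lines narrowed, 14 lost their call without both replicate 3 libraries of KO. Of all 305 genes called higher, 117 lost it there. Without KO day 4 replicate 3 alone, 7 of the 25 and 69 of the 305 lost their call.

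The same contrast was read from day 6 against day 0, which shares no library with day 4 against day 1. Those libraries did enter the spread and the filter behind the calls. There 814 genes moved higher (5.91%) and 557 lower (4.04%). Of the 305 genes called higher, 302 (99.0%) had the same sign and 258 (84.6%) were also called; of the 188 called lower, 187 (99.5%) had the same sign and 155 (82.4%) were called. Over all genes tested 78.5% had the same sign in both contrasts and 9.85% had the same sign with a call at day 6 against day 0. Of the genes called when the 16 libraries were fitted alone, 167 of 168 higher and 136 of 137 lower had the same sign at day 6 against day 0. The exceptions among the 305 and 188 genes were Add2, Cdh11, Tgfbr3l and Bbox1. Id3 was at 5.44 (adjusted p = 4.75e-06), Vcam1 at 4.84 (adjusted p = 6.34e-08), Mef2c at -4.06 (adjusted p = 0.000123) and Arhgef6 at -5.91 (adjusted p = 1.64e-07). Abca1, Grb10, Cd36 and H19 were not called there (adjusted p = 0.0594, 0.0933, 0.23 and 0.997). The labels do not say whether the libraries of different days come from the same cultures.

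**Figure D5:**
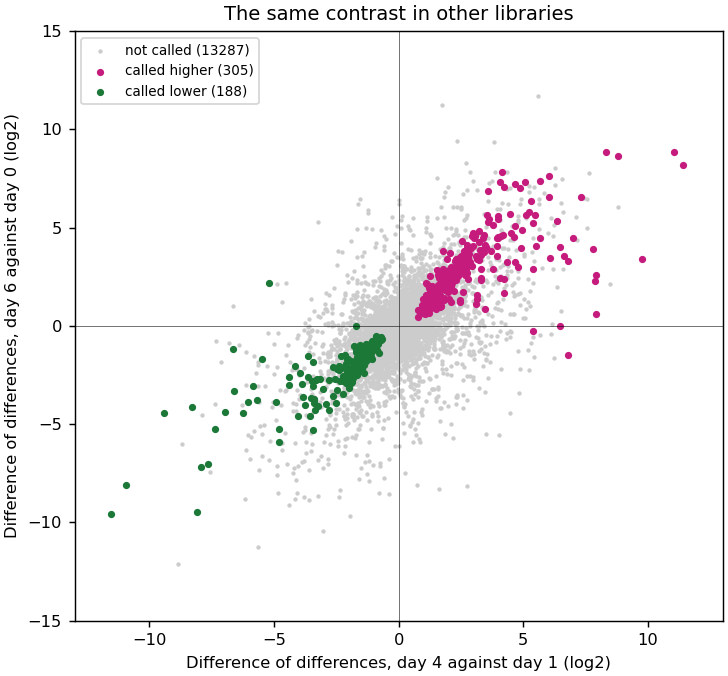
Difference of differences (log2) for day 6 against day 0 (vertical axis) and for day 4 against day 1 (horizontal axis) for each gene tested; the contrasts share no library. Of the 305 genes called higher, 302 lie above 0 on the vertical axis, and of the 188 called lower, 187 lie below it.

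Promoter windows are shown for the pair of genes in each direction that had the smallest p among those with a RefSeq window. The direction is that of the difference of differences, by which the genes were picked. Each runs from 250 bases before to 50 bases after the annotated start in RefSeq on GRCm38.p6, read 5' to 3' on the gene's strand. Capitals mark E-boxes (CANNTG, the core that MyoD family factors bind) and M-CAT elements (CATTCC or its complement GGAATG, bound by TEAD factors). Cmtm3 and Ackr3 moved higher, and Arhgef6 and Cavin4 moved lower. The windows lie at chr8:104340344-104340643 (+), chr1:90203730-90204029 (+), chrX:57338680-57338979 (-) and chr4:48663264-48663563 (+).
Cmtm3: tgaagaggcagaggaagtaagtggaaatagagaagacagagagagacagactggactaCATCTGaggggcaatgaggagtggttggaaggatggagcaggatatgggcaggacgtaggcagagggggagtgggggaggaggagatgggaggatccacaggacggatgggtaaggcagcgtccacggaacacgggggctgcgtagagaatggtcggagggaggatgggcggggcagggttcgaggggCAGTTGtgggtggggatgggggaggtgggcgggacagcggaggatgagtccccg
Ackr3: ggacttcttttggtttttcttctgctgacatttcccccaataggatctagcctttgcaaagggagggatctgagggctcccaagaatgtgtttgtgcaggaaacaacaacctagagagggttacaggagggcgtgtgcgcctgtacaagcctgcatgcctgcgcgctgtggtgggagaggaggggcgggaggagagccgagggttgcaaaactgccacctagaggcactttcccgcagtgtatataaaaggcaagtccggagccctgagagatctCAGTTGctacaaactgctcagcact
Arhgef6: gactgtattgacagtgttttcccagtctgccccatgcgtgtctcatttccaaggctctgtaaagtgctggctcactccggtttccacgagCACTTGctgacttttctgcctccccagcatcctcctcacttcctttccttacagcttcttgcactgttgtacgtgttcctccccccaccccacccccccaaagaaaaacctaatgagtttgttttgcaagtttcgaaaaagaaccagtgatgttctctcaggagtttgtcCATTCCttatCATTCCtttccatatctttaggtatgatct
Cavin4: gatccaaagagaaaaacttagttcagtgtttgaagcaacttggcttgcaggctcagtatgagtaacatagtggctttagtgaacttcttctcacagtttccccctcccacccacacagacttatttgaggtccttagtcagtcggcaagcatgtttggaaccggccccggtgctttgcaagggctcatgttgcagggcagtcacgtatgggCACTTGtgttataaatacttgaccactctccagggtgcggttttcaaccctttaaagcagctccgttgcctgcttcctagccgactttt
The Arhgef6 window holds 1 E-box and 2 M-CAT elements, the Cavin4 window 1 E-box, the Ackr3 window 1 and the Cmtm3 window 2. On either strand, an E-box was present in 64.7% of 232 windows of genes called higher and in 63.3% of 139 windows of genes called lower, against 63.2% of the 10509 windows of genes tested. M-CAT was present in 12.5% and 16.5%, against 12.2%. The E-box CAGCTG was present in 19.0% and 15.8%, against 15.5%, the MEF2 motif in 0.862% and 2.88%, against 1.4%, and the CArG box of SRF in 3.02% and 2.88%, against 1.42%. A match of letters is not a bound site.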

How the data were processed

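Values were raw read counts for each gene as deposited by the authors, who used FastQC 0.11.9, STAR 2.7.9 and featureCounts 2.0.3, per the submitters' processing notes; these also name GRCm38, GRCh38 and DESeq2 without roles. The annotation and the strand setting are not given in the sources used here, so reads of a gene and of an antisense partner cannot be told apart; Ampd3, Asb5, Mttp, Nefl, Pfkm and Pitx3 have an opposite-strand neighbour at 0.1 times their level or more. Near-identical copies make Actg1, Prl2c3, Ifi27l2a and Tcp11x2 uncertain. All 29980 identifiers matched GENCODE mouse release 21, which gave symbols and GRCm38 positions. A column that matched no sample was not used (1 column). Even values made up 65.0% of values above 0 (61.1% to 77.7% by library), so mates may have been counted separately, and halved counts were also fitted.

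Counts of all 39 libraries were fitted in edgeR 4.0.16 (R 4.3.3, limma 3.58.1) with 10 group means, TMM normalization (factors from 0.904 to 1.05), the filterByExpr filter, robust quasi-likelihood F-tests and Benjamini-Hochberg adjustment within a contrast over 13780 genes. The residual degrees of freedom were 29, with a common BCV (biological coefficient of variation) of 0.326. CPM use TMM-scaled totals. Differences are those of the fit; each SE combines the 4 group variances of log2 CPM (prior count 2), each divided by its n. Group mean totals were 18.3 M ± 4.02 (KO day 1), 15.3 M ± 4.72 (KO day 4), 20.9 M ± 4.04 (WT day 1) and 16.5 M ± 3.43 (WT day 4; SD, n = 4 each). In simulated data of 13410 genes the fit recovered 7% of 2-fold and 62.2% of 4-fold differences of differences, with 6.85% of calls false. Simulated libraries were independent, with a common mean per gene in all groups and the change placed in KO day 4. The real libraries deviate together by replicate number, so these shares need not hold for the real calls.

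The lists (35 lists, 818 genes, 740 tested) and the genes and comparisons were chosen with earlier results of these data known. Named genes were the 10 largest differences in each direction among those called also without KO day 1 replicate 3 with group means of at least 0.5 CPM and 1 of at least 5 CPM, up to 4 in each direction with a group mean under 0.5 CPM, the 8 smallest p in each direction, up to 4 members of each list by p, and 24 genes listed by name; predicted genes were passed over. Other called list members (Sox8, Jam3, Fbln1, Inhbb, Tgfb3, Adam12) and Tgfbr3l and Bbox1 were named after their values were seen. A few genes counted above are not reported by name. Deviations of same-numbered libraries from their group means correlated at 0.291 to 0.571 between KO and WT on day 1 and at 0.126 to 0.503 on day 4, above the limit of 0.1 for every pair; between days within a line they did not in every case (0.059 to 0.415). Alternatives were DESeq2 size factors, library totals, DESeq2 1.42.0, no filter, a replicate block over all libraries or within each day, the 16 libraries alone, glmTreat at 1.5-fold, halved counts, leaving out each library, and, added after the data were seen, leaving out both replicate 3 libraries of KO.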

Additional observations from a re-analysis of the deposited data

Results flagged for a closer look

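The 305 genes higher and 188 lower are themselves results in which the lines differ in their change over time, by the test of that difference. For 98 named genes, 392 groups of 4 libraries were considered. Groups with fewer than 20 reads in total or with equal values were passed over, and their number was not recorded. The rest were checked for 1 library far from the others of its group, and 27 were marked. Chance marks about 5% of the groups checked. No explanation was tested.

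KO day 4 replicate 1 was marked most often, for 8 genes. It was low for Col6a1 (289 CPM, others 914 to 1150), Fam19a5 (22.1 CPM, others 67.8 to 82.3), Serpine2 (204 CPM, others 483 to 550), Socs3 (42.9 CPM, others 76.7 to 80.5), Tcim (41.7 CPM, others 97.6 to 116) and Shroom3 (0.148 CPM, others 2.0 to 2.81). It was high for Adamts5 (71.1 CPM, others 23.1 to 27.9) and Arhgef6 (7.11 CPM, others 4.74 to 5.05). KO day 4 replicate 3 was high for Gap43 (3.09 CPM, others 0), Nefl (12.0 CPM, others 0) and Cdkn1a (2400 CPM, others 1240 to 1360). KO day 1 replicate 3 was low for Adamts5 (55.3 CPM, others 122 to 143) and Pfkm (110 CPM, others 129 to 133) and high for Ifi27l2a (26.5 CPM, others 3.68 to 4.95). KO day 1 replicate 4 was low for Mymx (0.325 CPM, others 3.38 to 4.19) and Myod1 (175 CPM, others 243 to 261).

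WT day 4 replicate 5 was low for Id3 (0.461 CPM, others 2.79 to 3.91), Gas1 (11.8 CPM, others 30.3 to 35.7), Lgr6 (0 CPM, others 1.49 to 2.04) and N4bp3 (24.1 CPM, others 55.2 to 59.6), and high for Xirp2 (79.9 CPM, others 15.0 to 16.2). WT day 1 replicate 5 was high for Xirp2 (51.5 CPM, others 16.1 to 19.4) and Mymx (27.4 CPM, others 5.59 to 7.19) and low for Rtkn2 (8.25 CPM, others 11.5 to 11.9). WT day 4 replicate 3 was low for Dock5 (24.4 CPM, others 28.9 to 29.7) and Myf5 (40.7 CPM, others 69.5 to 76.6), and WT day 1 replicate 3 for Nid1 (343 CPM, others 720 to 768).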

How the results depend on the processing

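The main counts were 305 genes higher and 188 lower. They were 512 and 313 with a replicate block over 39 libraries, 589 and 484 with the replicate block within each day (282 and 171 of the original calls kept), 168 higher with the 16 libraries alone, 139 and 73 with glmTreat at 1.5-fold, 336 lower with DESeq2, and 200 higher without both replicate 3 libraries of KO. DESeq2 size factors, library totals, no filter and halved counts stayed within 1.5 times in both directions; library totals moved the median of all genes to 0.104. Leaving out 1 library gave 222 to 323 higher and 129 to 207 lower. Of 78 named and called genes, 44 were called under all 26 alternatives and 56 without each single library. Nefl ran from -2.19 to 6.93 over the libraries left out: it reversed, to -2.19 without KO day 4 replicate 3 and to -1.88 without both replicate 3 libraries of KO. The cause of these shifts was not tested, except that glmTreat asks for a larger change. At this depth and with 4 libraries a group, most 2-fold differences of differences were missed in the simulated data, so a gene not called is not shown to move alike in the lines. SEs use the groups compared, whereas the p-values use a spread shared by 10 groups.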
